A study of Mus musculus with 15 samples.

Results

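The 42 genes described here carry the cell's response to unfolded protein in the endoplasmic reticulum (ER) and to shortage of amino acids. They were taken by symbol from a list given for this work, and all 42 were found among the 52327 genes of the deposited count table. All 42 also had at least 10 counts in at least 3 of the 15 libraries, the condition for testing that 13199 genes met. The list was read as 2 sets of 21. The ER set holds 14 chaperones and foldases, 3 sensors and transcription factors, and 4 genes of quality control and translocation. The ATF4 set holds 5 transcription factors, 4 feedback regulators, 6 amino acid and one-carbon enzymes, 4 amino acid transporters and 2 other targets. Messenger RNA was sequenced by strand from a mouse line that the labels call HoxB, with Blood as the cell type, in 5 groups of 3 libraries. EMPTY cells carried control vectors. RUNX1-ETO_ONLY cells carried RUNX1-ETO, a leukaemia fusion transcription factor, and CSF3R_ONLY cells carried CSF3R-T618I, an altered receptor for granulocyte colony-stimulating factor. Both alleles were present in the remaining groups, RUNX1-ETO_FIRST and CSF3R_FIRST, whose names give the allele that came first. The labels do not say whether a group was a single clone or a mixed culture, nor how long its cells were grown, nor whether replicates were separate cultures. P-values therefore measure the spread between these libraries, which may be technical.

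Secreted and membrane proteins fold in the ER with the help of chaperones, disulfide isomerases and lectins. When unfolded protein builds up, the sensors IRE1 (gene Ern1), ATF6 and PERK (gene Eif2ak3) are engaged. IRE1 splices the messenger RNA of Xbp1, and the resulting factor and cleaved ATF6 raise chaperone genes. PERK and the amino acid sensor GCN2 (gene Eif2ak4) phosphorylate the translation factor eIF2, which slows most translation and favours that of ATF4, a transcription factor for amino acid synthesis, amino acid uptake and feedback genes. Counts per gene show neither the splicing of Xbp1 nor the translation of ATF4. In blood cells these pathways are known best from plasma cells and other secretory cells.

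Promoter sequences are shown first because the members are usually grouped by the DNA elements in front of them. RefSeq promoters of build GRCm38.p6 (250 bases before to 50 after a gene's start) were given for 38 of the 42 members. Slc7a5, Atf6, Hyou1 and Manf had no entry. The ER stress element (ERSE) was searched on both strands as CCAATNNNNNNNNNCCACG and was found in 8 of 18 promoters of the ER set, in 0 of 20 of the ATF4 set and in 37 of all 27025 promoters (0.137%). In the lines below its fixed bases are in capitals, and each line runs 5′ to 3′ on the gene's own strand. An element on the other strand is shown reverse-complemented, as in Calr and Creld2.
Hspa5: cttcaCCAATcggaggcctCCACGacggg
Calr: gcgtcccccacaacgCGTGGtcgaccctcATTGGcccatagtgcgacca
Pdia6: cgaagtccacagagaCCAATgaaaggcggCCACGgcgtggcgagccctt
Creld2: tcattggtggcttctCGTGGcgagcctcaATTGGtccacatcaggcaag
Syvn1: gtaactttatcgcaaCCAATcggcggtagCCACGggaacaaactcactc
The Hspa5 element lies 65 to 47 bases before the start (chr2:34772020-34772048, plus strand), inside an exon of a longer transcript in GENCODE M21. The others lie at chr8:84847060-84847108 (minus strand) for Calr, chr12:17266476-17266524 (plus) for Pdia6, chr15:88819505-88819553 (plus) for Creld2 and chr19:6046517-6046565 (plus) for Syvn1. The remaining promoters with an ERSE were those of Canx, Dnajc3 and Hsp90b1. Hsp90b1 held 2 matches, shown in 1 stretch of 147 bases at chr10:86705525-86705671 (minus strand), which ends 81 bases before the start.
Hsp90b1: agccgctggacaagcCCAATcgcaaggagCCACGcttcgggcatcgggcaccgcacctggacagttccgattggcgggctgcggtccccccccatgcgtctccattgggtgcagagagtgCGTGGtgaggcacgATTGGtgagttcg
A second form, ERSE-II (ATTGG, 1 base of any kind, then CCACG), was searched on both strands and found in Herpud1 and Dnajb11, in 12 of all promoters (0.0444%), and in 0 of 20 of the ATF4 set. The element UPRE (TGACGTGG) was in no member promoter and in 0.714% of all promoters.

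For the ATF4 set the element bound by ATF4 with C/EBP factors, here called CARE, was searched as TGATGNAA on both strands. It was found in 7 of 20 promoters of that set (Asns, Atf3, Chac1, Nupr1, Slc7a11, Trib3 and Vldlr), in 1 of 18 of the ER set (Herpud1) and in 1219 of all promoters (4.51%). Capitals mark its fixed bases, reverse-complemented in Chac1 and Atf3, where the element is on the other strand.
Asns: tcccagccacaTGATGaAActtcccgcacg
Slc7a11: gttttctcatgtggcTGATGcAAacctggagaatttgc
Chac1: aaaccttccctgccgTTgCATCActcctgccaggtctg
Atf3: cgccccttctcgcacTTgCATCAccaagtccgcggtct
They lie at chr6:7693214-7693243 (minus strand) for Asns, chr3:50443657-50443694 (minus) for Slc7a11, chr2:119351034-119351071 (plus) for Chac1 and chr1:191183421-191183458 (minus) for Atf3. A match is a description of these letters in this window, not evidence of a bound site.

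Depth was even, at 17003189 to 18173954 counts per library. Runx1t1, the mouse gene of the ETO part, had 0 CPM in all 6 libraries without the fusion and 381 to 812 CPM in the 9 libraries with it. It was at 439, 513 and 392 CPM in RUNX1-ETO_ONLY. The double groups had 381, 538 and 564 CPM (RUNX1-ETO_FIRST) and 812, 764 and 559 (CSF3R_FIRST). Runx1 was at 537, 627 and 669 CPM in RUNX1-ETO_FIRST and at 818, 738 and 685 in CSF3R_FIRST, without overlap. The part of these levels in the order results was not tested. CPM are counts scaled to a common library size, here with the TMM factors of edgeR. Csf3r was at 618 to 627 CPM in CSF3R_ONLY, 373 to 465 in EMPTY and 507 to 536 in RUNX1-ETO_ONLY, which has no receptor allele. It was at 366 to 441 CPM in both double groups, so its count does not mark the receptor allele. The labels were kept as given. Markers of blood cells were counted in every group (6 of 6), but their summed level differed. It was highest in EMPTY (43237 to 48022 CPM) and lowest in the double groups (13439 to 15980 CPM), with the single-allele groups between. Of 4 stromal cell genes, Col1a2, Col3a1 and Dcn had 0 counts in all groups. The remaining stromal gene was counted in every group, at no more than 1.27 CPM in a library. Summed mast cell markers (5 genes) were at 814 to 1324 CPM in EMPTY, where Fcer1a had 0 counts, 9853 to 10877 in RUNX1-ETO_ONLY, 2283 to 2379 in CSF3R_ONLY, 20756 to 25511 in CSF3R_FIRST and 11706 to 14786 in RUNX1-ETO_FIRST. Plasma cell markers (5 genes) were low and, like the median chaperone, lowest in RUNX1-ETO_ONLY and highest in CSF3R_FIRST, with sums of 4.99 to 5.61 CPM in RUNX1-ETO_ONLY, 7.59 to 8.92 in CSF3R_ONLY, 12 to 17.4 in EMPTY, 18.2 to 23 in RUNX1-ETO_FIRST and then 34 to 42.3 in CSF3R_FIRST. Jchain was at 0 in EMPTY, Mzb1 and Tnfrsf17 in CSF3R_ONLY, and Tnfrsf17 in CSF3R_FIRST. These marker levels move with the groups, and their part in the results below was not tested. Fewer cells of a type and less RNA per cell cannot be told apart in these bulk libraries. In EMPTY 3, RUNX1-ETO_ONLY 3, RUNX1-ETO_FIRST 1 and CSF3R_FIRST 3, long transcripts were low, with correlations over 13084 genes of -0.54, -0.38, -0.30 and -0.31 between a gene's deviation and its transcript length. The other 11 libraries lay between -0.07 and 0.41. The main counts of called members are also given with those 4 dropped.

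The 2 sets moved together with the fusion alone and apart with the receptor introduced first. A member is called higher or lower where the adjusted p of edgeR's quasi-likelihood test (Benjamini-Hochberg over the 13199 genes) was under 0.05. With RUNX1-ETO alone, against EMPTY, 17 of 21 ER genes were lower and 0 higher, and 12 of 21 ATF4 genes were lower and 2 higher, while 18.1% of all genes were called lower and 20.8% higher. The median log2 change was -0.48 in the ER set and -0.36 in the ATF4 set, beside 0.01 over all genes. With CSF3R-T618I alone, against EMPTY, 6 ER genes were lower and 2 higher, and 8 ATF4 genes were lower and 5 higher, beside 13% and 19.9% of all genes. In RUNX1-ETO_FIRST against EMPTY 3 ER genes were higher and 3 lower, and 6 ATF4 genes higher and 6 lower, with 23.7% of all genes higher and 20.1% lower, beside 14.3% of the ER set and 28.6% of the ATF4 set in each direction. In CSF3R_FIRST against EMPTY 13 ER genes were higher and 1 lower (61.9% and 4.76% of the set), with a median of 0.30, while the ATF4 set split into 8 higher and 7 lower with a median of 0.01. The background in that comparison was 26.7% higher and 26.5% lower. These 4 comparisons share the EMPTY libraries, so their values are not independent.

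Between groups that differ by the allele added later, RUNX1-ETO_FIRST against RUNX1-ETO_ONLY had 17 ER genes higher (81%) and 0 lower and 12 ATF4 genes higher (57.1%) and 0 lower, where 15.9% of all genes were called higher and 10.3% lower. CSF3R_FIRST against CSF3R_ONLY had 11 ER genes higher and 1 lower and 6 ATF4 genes higher and 5 lower, beside 22.2% and 22.5% of all genes. For the order of the alleles, RUNX1-ETO_FIRST against CSF3R_FIRST, 10 ER genes were lower (47.6%) and 0 higher, and 4 ATF4 genes were lower (19%) and 5 higher (23.8%). The background was 11.1% lower and 7.18% higher. The median in that comparison was -0.30 in the ER set and 0.02 in the ATF4 set. Each count of 0 in this paragraph and the previous was also 0 at an unadjusted p under 0.05 and 0 by DESeq2. With the 4 libraries low in long transcripts dropped, the order comparison called 18 ER genes lower and 1 higher and 5 ATF4 genes each way. Of all 12891 genes then tested, 2626 were lower and 1765 higher. Such counts over all genes, lower then higher, are set beside each comparison below. The fusion alone then had 19 ER genes lower and 0 higher, and 13 ATF4 genes lower and 4 higher, beside 3108 and 3174. The receptor alone had 11 ER genes lower and 2 higher, and 11 ATF4 genes lower and 7 higher, beside 2799 and 3302. Against EMPTY, RUNX1-ETO_FIRST had 8 ER genes lower and 4 higher and 8 ATF4 genes lower and 7 higher, beside 3497 and 3495. CSF3R_FIRST had 3 ER genes lower and 14 higher and 8 ATF4 genes each way, beside 4126 and 4151. From RUNX1-ETO_ONLY to RUNX1-ETO_FIRST 0 ER genes were lower and 18 higher, and 2 ATF4 genes lower and 13 higher, beside 2381 and 2715. From CSF3R_ONLY to CSF3R_FIRST 1 ER gene was lower and 15 higher, and 7 ATF4 genes lower and 9 higher, beside 3724 and 3799. Without EMPTY 3 alone, the order comparison called 16 ER genes. That setting gained 40 member calls and lost 5 over all comparisons, and its count over all genes is not given here. Scaled by library size alone, the order comparison called 6 ER genes. The share of higher genes among all calls then went from 39.4% to 61.9%, with a shift of 0.10 in the median of all genes.

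**Figure D1:**
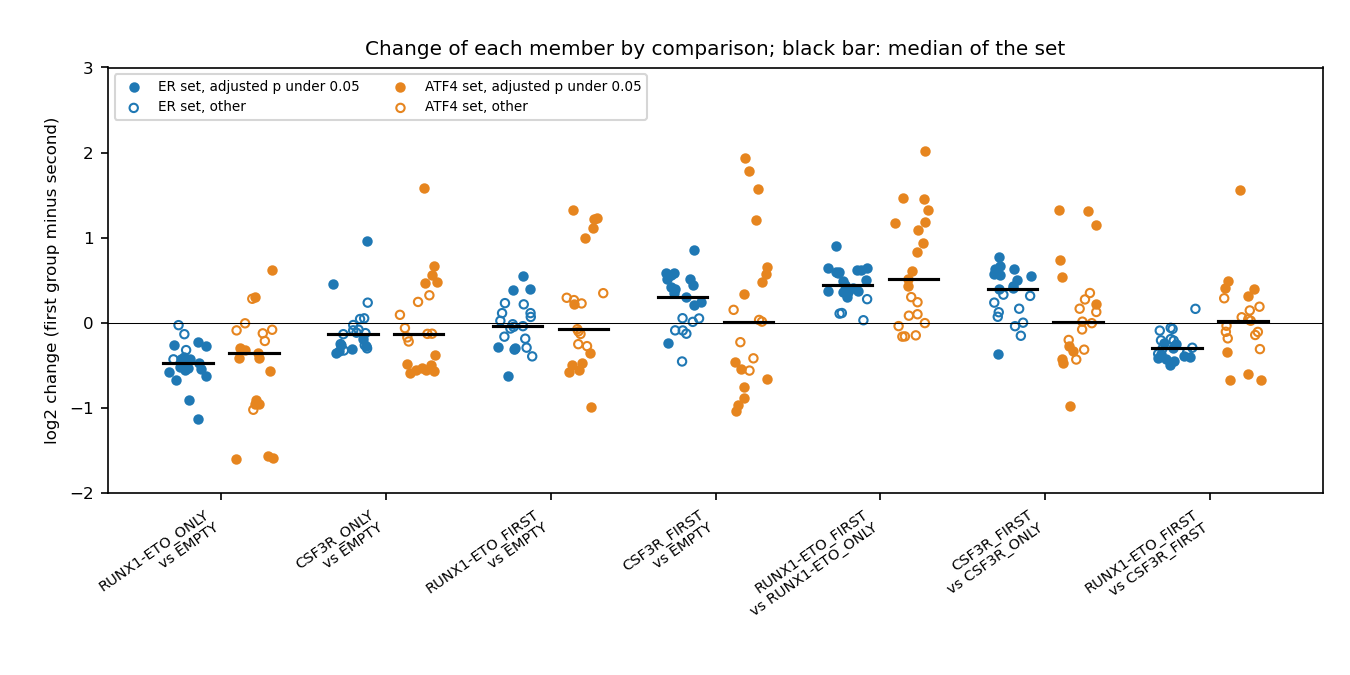
Log2 change of each of the 42 members (points) in 7 comparisons, ER set in blue and ATF4 set in orange, with filled points for adjusted p under 0.05 and a black bar for the median of a set. The ER points of RUNX1-ETO_ONLY lie below 0 throughout, and the ATF4 points of CSF3R_FIRST against EMPTY spread from -1.03 to 1.94.

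**Figure D2:**
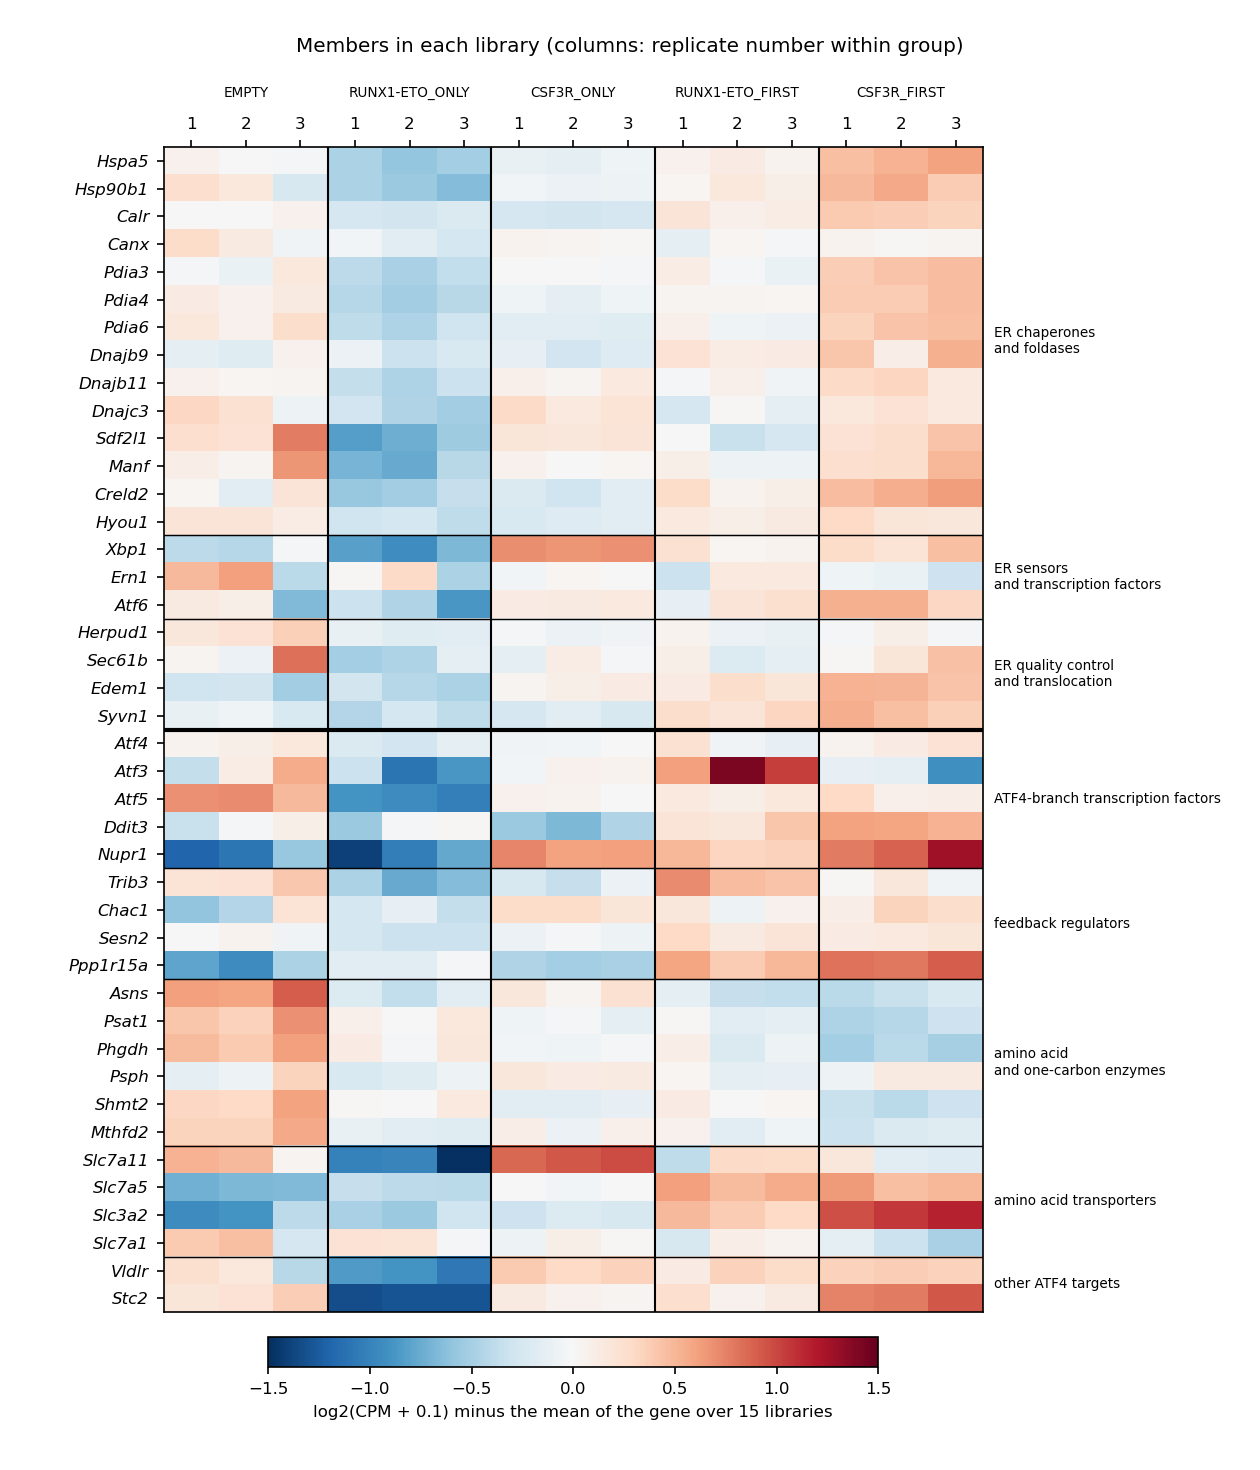
Level of each member in each of the 15 libraries, as log2 of CPM plus 0.1 minus the mean of the gene, grouped by role, with colours ending at 1.5 in both directions. RUNX1-ETO_ONLY is low in nearly all roles, CSF3R_FIRST is high in the chaperones and low in the enzymes, and EMPTY 3 stands apart from EMPTY 1 and 2 in Sdf2l1, Manf, Sec61b, Ern1 and Atf6.

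Per kilobase of transcript, the abundance of the members in EMPTY ran from 0.376 CPM per kb for Atf3 to 2494 for Calr. Calr, the lectin chaperone calreticulin, stood above all other members, followed by Pdia3, Hsp90b1 and Hspa5 at 385, 340 and 330 CPM per kb. Slc7a11 (1.72), Vldlr (5.54) and Trib3 (6.45) were lowest after Atf3. The library low in long transcripts in that group makes values per kb approximate.

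By group mean, RUNX1-ETO_ONLY was lowest for 13 of the 14 chaperones and foldases (CSF3R_ONLY for Calr). CSF3R_FIRST was highest for 11, EMPTY for Canx and Sdf2l1, and CSF3R_ONLY for Dnajc3. Of the 14, 13 were lower with the fusion alone (18.1% of all genes), 5 were lower with the receptor alone (13%), 9 were higher in CSF3R_FIRST against EMPTY (26.7%), and 9 were lower in RUNX1-ETO_FIRST than in CSF3R_FIRST (11.1%). No chaperone was called in the other direction in these comparisons, at an unadjusted p or by DESeq2 either. The shares of all genes called in that other direction were 20.8%, 19.9%, 26.5% and 7.18%, in the same order. Hspa5, the master chaperone BiP that also holds the sensors inactive (ENSMUSG00000026864, chr2:34771970-34777547), had 1257, 1202 and 1176 CPM in EMPTY and 866, 805 and 845 in RUNX1-ETO_ONLY. It had 1114, 1086 and 1148 CPM in CSF3R_ONLY, 1255, 1311 and 1242 in RUNX1-ETO_FIRST and 1641, 1720 and 1828 in CSF3R_FIRST. Libraries of EMPTY and RUNX1-ETO_FIRST overlapped, and the other groups were separate from them. The log2 change of Hspa5 was -0.53 with the fusion alone (SE 0.07, adjusted p = 1.67e-05 by edgeR), -0.12 with the receptor alone (adjusted p = 0.22), 0.51 in CSF3R_FIRST against EMPTY and -0.45 between the orders (adjusted p = 0.000337).

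Creld2, an ER stress-induced protein with disulfide isomerase activity, was at 67.7, 59.5 and 76.0 CPM in EMPTY, 44.8, 46.1 and 51.9 in RUNX1-ETO_ONLY and 56.9, 53.7 and 58.7 in CSF3R_ONLY. It reached 80.2, 68.8 and 70.5 CPM in RUNX1-ETO_FIRST and 91.1, 96.6 and 102 in CSF3R_FIRST, where all 3 libraries lay above those of every other group. Its change was 0.51 in CSF3R_FIRST against EMPTY and -0.40 between the orders (SE 0.10, adjusted p = 0.00795, edgeR). Pdia4, a disulfide isomerase, was at 337, 323 and 340 CPM in EMPTY, 230, 216 and 231 in RUNX1-ETO_ONLY and 296, 281 and 297 in CSF3R_ONLY. It was at 318, 319 and 316 CPM in RUNX1-ETO_FIRST and 403, 402 and 427 in CSF3R_FIRST. The 5 groups did not overlap in Pdia4. Its changes were -0.56 with the fusion alone and -0.37 between the orders (adjusted p = 0.000498, edgeR).

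Calr had 5362, 5345 and 5636 CPM in EMPTY, 4523, 4448 and 4643 in RUNX1-ETO_ONLY, 4502, 4451 and 4509 in CSF3R_ONLY, 6178, 5657 and 5827 in RUNX1-ETO_FIRST and 7079, 6930 and 6760 in CSF3R_FIRST. The single-allele groups overlapped each other, below EMPTY, and CSF3R_FIRST lay above all. Hsp90b1, the ER member of the HSP90 family, had 1089, 1022 and 775 CPM in EMPTY, 661, 625 and 585 in RUNX1-ETO_ONLY, 892, 865 and 870 in CSF3R_ONLY, 935, 1020 and 974 in RUNX1-ETO_FIRST and 1287, 1361 and 1197 in CSF3R_FIRST, with EMPTY 3 low in its group. Pdia3, a disulfide isomerase that works with calreticulin, had 1044, 984 and 1173 CPM in EMPTY, 805, 753 and 817 in RUNX1-ETO_ONLY, 1048, 1054 and 1037 in CSF3R_ONLY, 1143, 1034 and 982 in RUNX1-ETO_FIRST and 1360, 1414 and 1452 in CSF3R_FIRST. Pdia6, another isomerase, had 479, 452 and 518 CPM in EMPTY, 330, 311 and 349 in RUNX1-ETO_ONLY, 386, 387 and 379 in CSF3R_ONLY, 455, 411 and 405 in RUNX1-ETO_FIRST and 540, 580 and 589 in CSF3R_FIRST. In both isomerases RUNX1-ETO_ONLY was the lowest group and CSF3R_FIRST the highest, without overlap. Dnajb11, a co-chaperone of BiP, had 130, 126 and 128 CPM in EMPTY, 96.7, 89.9 and 99.2 in RUNX1-ETO_ONLY, 130, 127 and 137 in CSF3R_ONLY, 121, 130 and 119 in RUNX1-ETO_FIRST and 151, 155 and 137 in CSF3R_FIRST. Between the orders Hsp90b1 changed by -0.39, Pdia3 by -0.42, Pdia6 by -0.43, Dnajb11 by -0.26 and Calr by -0.23. The call on Calr was the least secure: it was lost under 11 of 24 alternatives, among them leaving out any of 9 libraries, with adjusted p from 0.0526 to 0.134. Hsp90b1 lost its call without RUNX1-ETO_FIRST 1 (adjusted p = 0.0577) or CSF3R_FIRST 2 (0.0528), and Dnajb11 without RUNX1-ETO_FIRST 1 (0.0512). Sdf2l1, a partner of Dnajb11, had the largest fall among chaperones with the fusion alone, -1.13 (SE 0.13, adjusted p = 4.8e-06), from 156, 152 and 222 CPM in EMPTY to 73.7, 78.7 and 90.3. In the double groups Sdf2l1 had 131, 104 and 110 CPM (RUNX1-ETO_FIRST) and 152, 158 and 176 (CSF3R_FIRST), and its order change of -0.49 was lost without RUNX1-ETO_FIRST 2 (0.0773), RUNX1-ETO_FIRST 3 (0.0528) or CSF3R_FIRST 3 (0.0532). Manf, a secreted ER protein, fell from 355, 341 and 525 CPM in EMPTY to 205, 196 and 247 in RUNX1-ETO_ONLY, a change of -0.91. Sdf2l1 has a short transcript, and EMPTY 3 was its highest library, as it was for Manf.

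Canx, the membrane lectin calnexin, stood apart from the other chaperones. It had 735, 666 and 584 CPM in EMPTY, 590, 542 and 505 in RUNX1-ETO_ONLY and 626, 615 and 622 in CSF3R_FIRST. EMPTY overlapped both other groups, which did not overlap each other. With all libraries it was called in 1 comparison, lower with the fusion alone by 0.28, and that call was lost without EMPTY 1 (adjusted p = 0.09), RUNX1-ETO_ONLY 2 (0.0531) or RUNX1-ETO_ONLY 3 (0.0770). Without EMPTY 3 Canx was also called lower in RUNX1-ETO_FIRST than in EMPTY (-0.27, adjusted p = 0.00564). Hyou1, the exchange factor of BiP, was lower with each single allele, by 0.48 and 0.36 on the log2 scale, and was at 785, 754 and 774 CPM in RUNX1-ETO_FIRST, close to its 812, 806 and 764 in EMPTY. Reads of Hsp90b1, Pdia3, Pdia6, Dnajb9 and Manf can be shared with genes that overlap them on the other strand, since no source used here states the strand setting of the counting. Among the members described below, this also holds for Syvn1, Atf5, Ddit3, Ppp1r15a, Psph and Shmt2. Exons of Hsp90b1 (with Gm15344 and Gm25745), Manf (with Rbm15b) and Pdia4 (with Mir704) also overlap genes on the same strand.

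**Figure D3:**
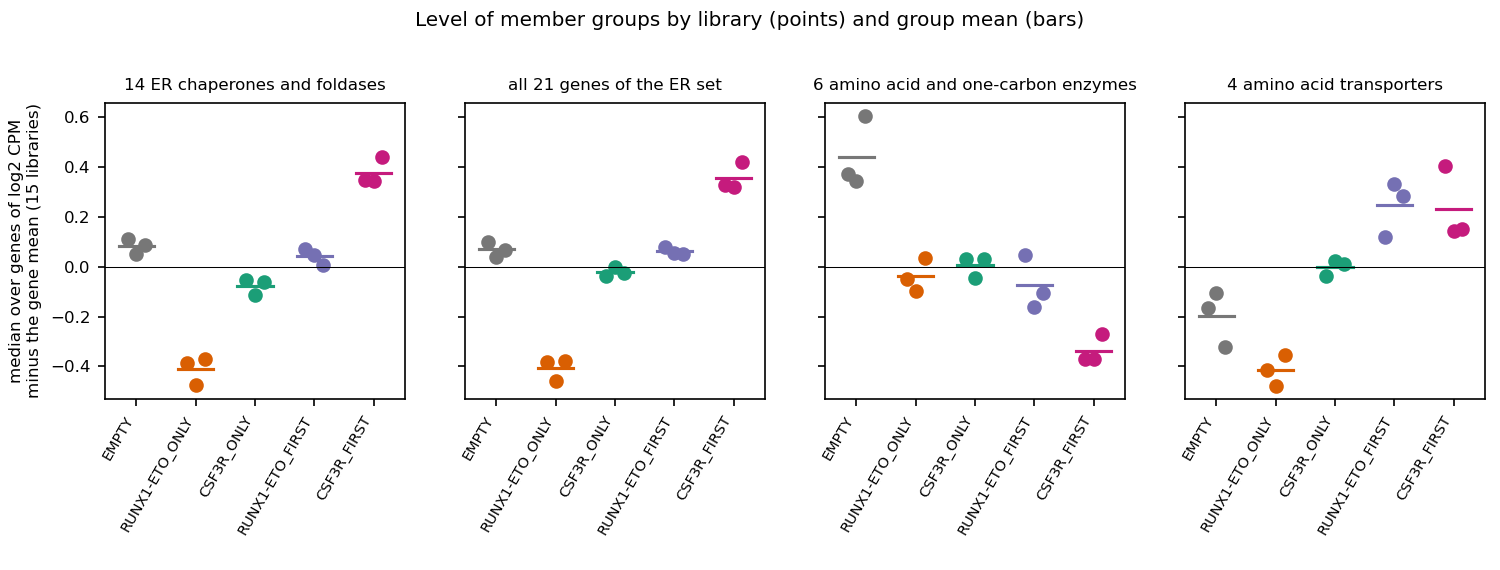
Median over the genes of a role of log2 CPM minus the gene's mean over 15 libraries, 1 point per library and a bar for the group mean. The chaperone points run from -0.48 in RUNX1-ETO_ONLY to 0.44 in CSF3R_FIRST, while the enzyme points are highest in EMPTY (0.34 to 0.61) and lowest in CSF3R_FIRST (-0.37 to -0.27).

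Among the sensors, Xbp1 fell with the fusion alone and rose in CSF3R_FIRST, as most chaperones did, but also rose with the receptor alone, where no chaperone did. Xbp1 encodes the factor that IRE1 activates by splicing (ENSMUSG00000020484, chr11:5520659-5525893). It was at 383, 375 and 493 CPM in EMPTY, 286, 265 and 317 in RUNX1-ETO_ONLY and 818, 796 and 810 in CSF3R_ONLY. The double groups had 590, 514 and 522 CPM (RUNX1-ETO_FIRST) and 609, 580 and 690 (CSF3R_FIRST). CSF3R_ONLY was thus highest and RUNX1-ETO_ONLY lowest, with no overlap with any other group, while the double groups overlapped each other. The change was 0.96 with the receptor alone (SE 0.11, adjusted p = 4.32e-06, edgeR) and -0.53 with the fusion alone. In CSF3R_FIRST Xbp1 was lower than in CSF3R_ONLY by 0.37 on the log2 scale, a call lost without CSF3R_FIRST 1 (adjusted p = 0.0592) or CSF3R_FIRST 2 (0.0829). Summed neutrophil markers (6 genes) were at 3973 to 4265 CPM in CSF3R_ONLY and at 206 to 719 in the other groups, and their part in the Xbp1 level was not tested. Atf6 was at 110, 106 and 63.2 CPM in EMPTY and at 144, 144 and 124 in CSF3R_FIRST, a change of 0.56 (adjusted p = 0.0135). That change was 0.35 without EMPTY 3 (adjusted p = 0.0302), and the call was lost when scaled by library size alone (0.0770) and with no filter (0.0586). Its RUNX1-ETO_ONLY libraries stood at 79.7, 72.9 and 54.2 CPM. Ern1, the IRE1 gene, ranged from 83.5 to 178 CPM and was called in no comparison with all libraries. Without EMPTY 3 alone it was called lower in all 4 comparisons with EMPTY, by 0.57 to 0.71 on the log2 scale (adjusted p from 0.00499 to 0.0273). Both Ern1 and Atf6 have long transcripts, and in EMPTY and RUNX1-ETO_ONLY their lowest library was replicate 3, which is low in long transcripts. With all libraries, 0 of the 3 sensors were called between the orders, and 0 at an unadjusted p under 0.05 or by DESeq2. In that comparison 11.1% of all genes were called lower and 7.18% higher. Without EMPTY 3, Atf6 (-0.37, adjusted p = 0.0253) and Xbp1 (-0.23, 0.0316) were called, and with the 4 libraries dropped all 3 were, with Ern1 at 0.20 (adjusted p = 0.0226).

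In quality control, Edem1 and Syvn1 were higher in both double groups. Edem1 takes misfolded glycoproteins toward degradation. It was at 196, 200 and 168 CPM in EMPTY, 200, 179 and 174 in RUNX1-ETO_ONLY and 249, 258 and 264 in CSF3R_ONLY. The double groups stood at 264, 290 and 274 CPM (RUNX1-ETO_FIRST) and 347, 345 and 324 (CSF3R_FIRST). Thus it did not fall with the fusion alone (-0.03, SE 0.08, adjusted p = 0.803, edgeR), rose by 0.45 with the receptor alone and by 0.85 in CSF3R_FIRST. Its order change of -0.30 was lost without RUNX1-ETO_FIRST 1 (adjusted p = 0.0598). Syvn1, the ubiquitin ligase HRD1 of ER-associated degradation, had 194, 201 and 178 CPM in EMPTY, 252, 239 and 261 in RUNX1-ETO_FIRST and 306, 286 and 267 in CSF3R_FIRST, changes of 0.39 and 0.58. Herpud1, a scaffold of the same ligase complex, went the other way. It was at 130, 134 and 147 CPM in EMPTY and between 101 and 122 CPM in every other library, lower in all 4 comparisons with EMPTY, by 0.24 to 0.41 on the log2 scale. Sec61b, of the translocation channel, was called lower with the fusion alone (-0.67), from 134, 122 and 230 CPM to 91.2, 94.5 and 119. The change was -0.35 without EMPTY 3 (adjusted p = 0.036), its highest library. The call was lost without RUNX1-ETO_ONLY 1 (adjusted p = 0.0527), and Sec61b has 3 close copies in the genome.

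Against EMPTY the 5 transcription factors of the ATF4 branch did not move as a unit, though all changes with the fusion alone were below 0. From RUNX1-ETO_ONLY to RUNX1-ETO_FIRST 4 of the 5 were called higher and 0 lower (15.9% and 10.3% of all genes), with a median of 1.09. At an unadjusted p under 0.05, and by DESeq2, 5 were higher and 0 lower there. In that comparison the change of Atf4 was 0.24 and was not called (adjusted p = 0.0522, edgeR). The call on Ddit3 there (0.43, adjusted p = 0.0482) was lost on leaving out any of 11 libraries (0.0545 to 0.207). Atf4 itself, whose protein level is set mainly by translation, was at 402, 409 and 432 CPM in EMPTY and 331, 315 and 351 in RUNX1-ETO_ONLY, lower by 0.32 (adjusted p = 0.00843, edgeR). In the other 3 groups it ranged from 355 to 452 CPM and was not called against EMPTY with all libraries. With the 4 libraries low in long transcripts dropped, Atf4 was called lower in RUNX1-ETO_FIRST (adjusted p = 0.00385) and CSF3R_ONLY (0.0334) than in EMPTY. It was then also called lower in RUNX1-ETO_FIRST than in CSF3R_FIRST (0.00237). Atf5, a related factor that is itself controlled by eIF2 phosphorylation (ENSMUSG00000038539, chr7:44812256-44816658), was at 82.8, 84.1 and 72.0 CPM in EMPTY and 27.5, 26.8 and 25.3 in RUNX1-ETO_ONLY. In CSF3R_ONLY, RUNX1-ETO_FIRST and CSF3R_FIRST all its 9 libraries lay between 51.5 and 63.4 CPM, below EMPTY and above RUNX1-ETO_ONLY. Its change with the fusion alone was -1.59 (SE 0.08, adjusted p = 3.62e-10). Nupr1, a stress-induced chromatin protein, was at 5.12, 5.55 and 7.97 CPM in EMPTY and 4.43, 5.70 and 6.92 in RUNX1-ETO_ONLY, groups that overlapped. It was at 19.7, 18 and 18.2 CPM in CSF3R_ONLY, 16.8, 14.8 and 15.1 in RUNX1-ETO_FIRST and 20.4, 22.0 and 28.8 in CSF3R_FIRST. All 9 libraries with the receptor allele thus lay above the 6 without it, with changes against EMPTY of 1.59, 1.33 and 1.94. The order change of Nupr1, -0.61, was lost without RUNX1-ETO_FIRST 2 (adjusted p = 0.0678), RUNX1-ETO_FIRST 3 (0.0558) or CSF3R_FIRST 3 (0.0831).

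Ddit3, the factor CHOP, was at 7.05, 8.83 and 9.47 CPM in EMPTY, 6.01, 5.56 and 6.52 in CSF3R_ONLY and 13.7, 13.5 and 12.9 in CSF3R_FIRST. The rise from CSF3R_ONLY to CSF3R_FIRST was 1.14 (SE 0.16, adjusted p = 1.78e-05, edgeR), and that from EMPTY 0.66. Its fall with the receptor alone, -0.48, was lost without EMPTY 2, EMPTY 3, CSF3R_ONLY 1 or CSF3R_ONLY 2 (adjusted p from 0.0689 to 0.105). Exons of Ddit3 overlap those of Gm4189 and Mars on the other strand, and those of another record named Ddit3 on its own strand. Atf3, another stress factor, was rare, with 5 to 35 counts per library. It was at 1.07, 1.92 and 1.47 CPM in RUNX1-ETO_FIRST and at 0.602, 0.590 and 0.303 in CSF3R_FIRST, a change of 1.56 (SE 0.36, adjusted p = 0.00668). EMPTY, at 0.496, 0.722 and 1.02 CPM, overlapped CSF3R_FIRST, and RUNX1-ETO_ONLY stood at 0.510, 0.257 and 0.314. The order call on Atf3 was kept under all 24 alternatives.

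Of the feedback regulators, Ppp1r15a rose with the fusion alone and further in both double groups. It encodes GADD34, which directs a phosphatase to eIF2 and so restores translation (ENSMUSG00000040435, chr7:45522916-45526268). It was at 21.5, 19.4 and 27.0 CPM in EMPTY, 33.5, 33.4 and 37.1 in RUNX1-ETO_ONLY and 27.3, 26.4 and 26.8 in CSF3R_ONLY. In RUNX1-ETO_FIRST it reached 56.3, 48.8 and 53.0 CPM and in CSF3R_FIRST 66.1, 64.8 and 70.5. The double groups lay above all single-allele and EMPTY libraries, with changes against EMPTY of 1.22 and 1.57 (SE 0.10, adjusted p = 9.34e-08 and 3.55e-09, edgeR). With the receptor alone the change was 0.24 and was not called (adjusted p = 0.0913), though it was without EMPTY 3 (0.36, 0.00367). The order change of -0.35 was lost without RUNX1-ETO_FIRST 2 (adjusted p = 0.107) or CSF3R_FIRST 3 (0.0601). Trib3, a pseudokinase that restrains ATF4 and AKT, was at 12.4, 12.5 and 14.3 CPM in EMPTY, 7.75, 6.32 and 6.81 in RUNX1-ETO_ONLY and 9.11, 8.46 and 10.1 in CSF3R_ONLY. RUNX1-ETO_FIRST was highest, at 17.7, 14.9 and 14.5 CPM, above CSF3R_FIRST at 10.9, 12.2 and 10.4. The order change of Trib3 was 0.49 (adjusted p = 0.00815), against the direction of the ER set, and was lost without CSF3R_FIRST 3 (0.42, adjusted p = 0.0530) and with all 4 of the libraries with low long transcripts dropped (0.32, 0.0531). Sesn2, an inhibitor of the growth kinase complex mTORC1, was lower with the fusion alone by 0.30 and was 0.52 higher in RUNX1-ETO_FIRST than in RUNX1-ETO_ONLY. Chac1, which degrades glutathione, was at 9.26, 10.3 and 16.1 CPM in EMPTY and 16.9, 16.9 and 15.8 in CSF3R_ONLY. Its changes were 0.48 both with the receptor alone and in CSF3R_FIRST against EMPTY. The first call was lost without EMPTY 1 or 2, any CSF3R_ONLY library or RUNX1-ETO_FIRST 3 (adjusted p from 0.0532 to 0.126), and the second without EMPTY 1, EMPTY 2 or CSF3R_FIRST 2 (0.0679 to 0.104). Without EMPTY 3 the changes were 0.74 and 0.75. With those 4 libraries dropped that are low in long transcripts, Chac1 was called higher with the fusion alone, at 0.31 (adjusted p = 0.0464), against -0.01 with all libraries.

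**Figure D4:**
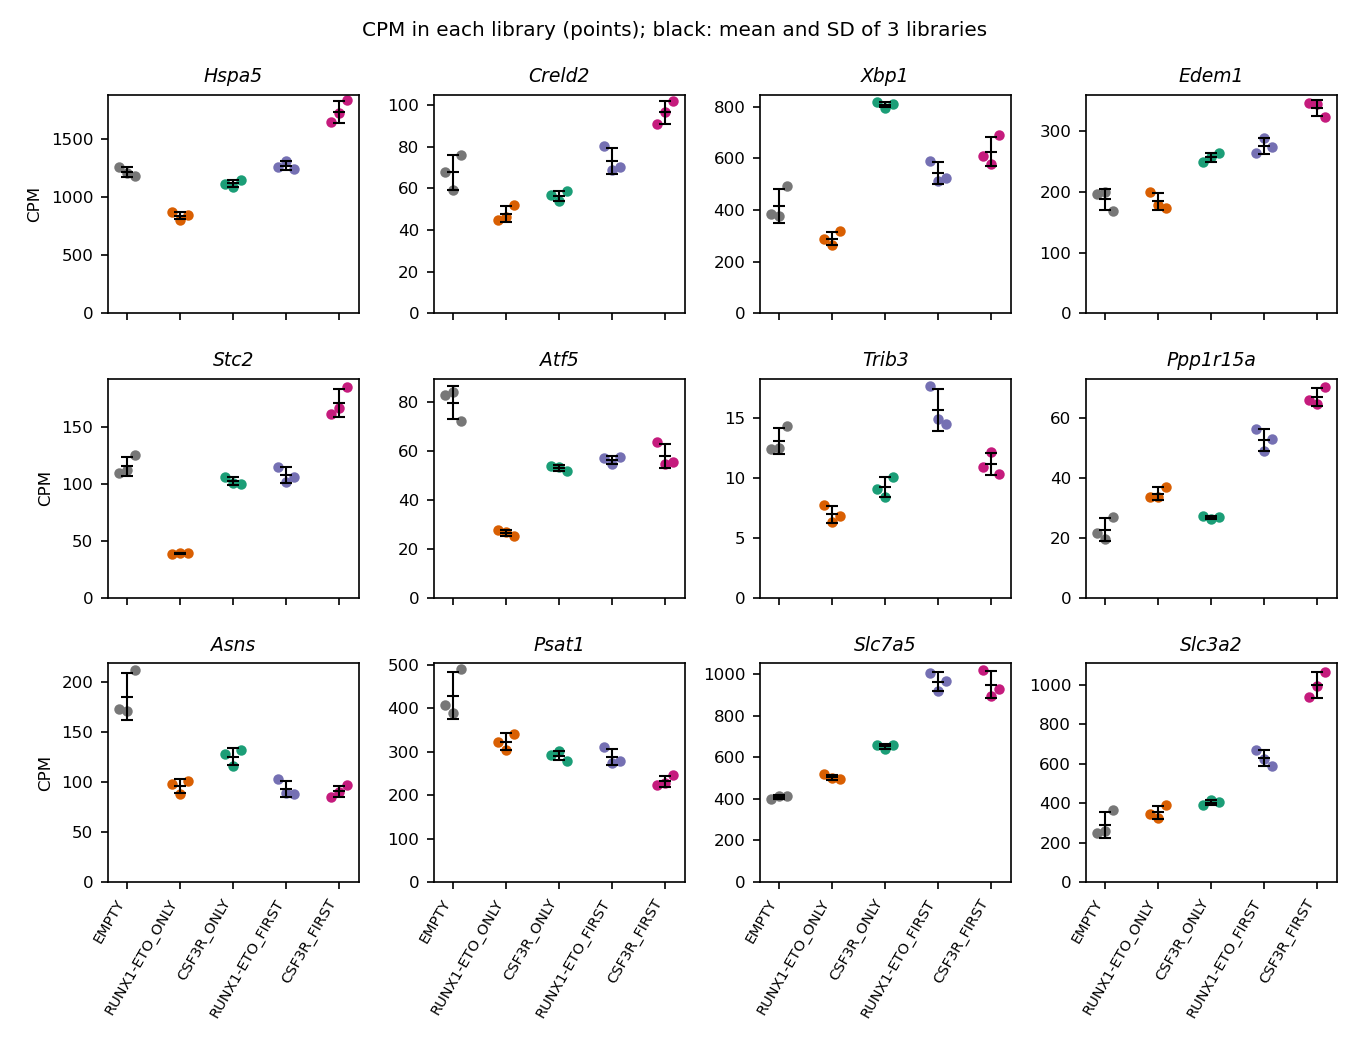
CPM of 12 members in each library (points), with the mean and SD of the 3 libraries of a group in black. Hspa5 and Creld2 peak in CSF3R_FIRST, Xbp1 in CSF3R_ONLY, Trib3 in RUNX1-ETO_FIRST and Asns and Psat1 in EMPTY, and Stc2 and Atf5 are lowest in RUNX1-ETO_ONLY.

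By group mean, 5 of the 6 enzymes were highest in EMPTY, unlike most chaperones. Psph was highest in CSF3R_ONLY, with a mean of 26.8 CPM beside 25.2 in EMPTY. Of the 6, Asns, Psat1, Phgdh, Shmt2 and Mthfd2 were lower than EMPTY in all 4 groups, and 0 were higher, at an unadjusted p under 0.05 or by DESeq2 either. Of all genes 18.1%, 13%, 20.1% and 26.5% were lower in RUNX1-ETO_ONLY, CSF3R_ONLY, RUNX1-ETO_FIRST and CSF3R_FIRST, and 20.8%, 19.9%, 23.7% and 26.7% higher. Asns makes asparagine. It was at 173, 171 and 212 CPM in EMPTY, 98.1, 87.9 and 101 in RUNX1-ETO_ONLY and 128, 116 and 132 in CSF3R_ONLY. In the double groups it was at 103, 88.9 and 87.8 CPM (RUNX1-ETO_FIRST) and 85.4, 89.8 and 96.6 (CSF3R_FIRST), which overlapped each other. Its changes against EMPTY were -0.95, -0.56, -0.99 and -1.03 in that order (each SE 0.10, highest adjusted p = 0.000301, edgeR).

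Psat1, Phgdh and Psph form the serine synthesis path. Psat1 was at 407, 389 and 490 CPM in EMPTY, 323, 303 and 342 in RUNX1-ETO_ONLY, 293, 301 and 279 in CSF3R_ONLY, 310, 275 and 279 in RUNX1-ETO_FIRST and 222, 227 and 246 in CSF3R_FIRST. Phgdh was at 204, 193 and 224 CPM in EMPTY, 157, 126 and 139 in RUNX1-ETO_FIRST and 103, 111 and 104 in CSF3R_FIRST. CSF3R_FIRST was the lowest group for both, without overlap. Between the orders Psat1 changed by 0.31, Phgdh by 0.41 (SE 0.09, adjusted p = 0.00335) and Shmt2, the mitochondrial serine to glycine enzyme, by 0.40 (SE 0.08, adjusted p = 0.00333). The call on Psat1 was lost without RUNX1-ETO_FIRST 1 or 3 or CSF3R_FIRST 1 or 2 (adjusted p from 0.0617 to 0.111). Shmt2 was at 647, 640 and 791 CPM in EMPTY, 567, 520 and 531 in RUNX1-ETO_FIRST and 413, 394 and 419 in CSF3R_FIRST. Mthfd2, its folate partner, fell by 0.39 to 0.66 on the log2 scale against EMPTY. Psph, the last enzyme of serine synthesis, ranged from 20.7 to 30.6 CPM, was highest in EMPTY 3, and was called in no comparison with all libraries or with any 1 left out. Phgdh has 9 close copies in the genome, none with more than 57 counts in a library. EMPTY 3 was the highest library of all 6 enzymes, and without it the 5 enzymes called against EMPTY kept those calls.

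The transporters split. Slc7a5 and Slc3a2 are the light and heavy chains of 1 exchanger for large neutral amino acids such as leucine. Slc7a5 (ENSMUSG00000040010, chr8:121881150-121907694) was at 399, 413 and 416 CPM in EMPTY, 517, 499 and 496 in RUNX1-ETO_ONLY and 657, 639 and 659 in CSF3R_ONLY. It was at 1006, 916 and 968 CPM in RUNX1-ETO_FIRST and 1021, 897 and 928 in CSF3R_FIRST, groups that overlapped each other and lay above all others. The changes against EMPTY were 0.30, 0.67, 1.23 and 1.21 (SE 0.07). Slc3a2 was at 249, 257 and 365 CPM in EMPTY, 344, 326 and 388 in RUNX1-ETO_ONLY and 388, 414 and 405 in CSF3R_ONLY. In RUNX1-ETO_FIRST it was at 671, 624 and 591 CPM and in CSF3R_FIRST at 936, 996 and 1068. Unlike its partner, Slc3a2 differed between the orders, by -0.67 (SE 0.12, adjusted p = 0.00119, edgeR). The order change of Slc7a5 was 0.02 with an SE of 0.07.

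Slc7a11, which imports cystine for glutathione, was at 17.6, 17.3 and 12.6 CPM in EMPTY, 6.01, 6.11 and 3.46 in RUNX1-ETO_ONLY and 22.3, 23.5 and 24.4 in CSF3R_ONLY. Its fall with the fusion alone, -1.61 (SE 0.22, adjusted p = 2.07e-05, edgeR), was the largest of any member in that comparison. The rise with the receptor alone, 0.56, was lost under 10 of 24 alternatives. Among them were leaving out EMPTY 3, RUNX1-ETO_FIRST 3, or any library of CSF3R_ONLY or CSF3R_FIRST (adjusted p from 0.0508 to 0.119). In the double groups Slc7a11 ranged from 9.42 to 15 CPM. Slc7a1, a carrier of arginine and lysine with a long transcript, ranged from 114 to 220 CPM and with all libraries was called once, lower in CSF3R_FIRST than in EMPTY (-0.54), with overlapping libraries. Without EMPTY 3 it was called lower in the other 3 comparisons with EMPTY too (-0.30, -0.44 and -0.47, adjusted p from 0.00153 to 0.0338) and from CSF3R_ONLY to CSF3R_FIRST (-0.29, 0.0179).

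Stc2 and Vldlr, the remaining targets of ATF4, were both lowest in RUNX1-ETO_ONLY. Stc2 encodes a secreted glycoprotein, stanniocalcin, that is raised by PERK and ATF4 (ENSMUSG00000020303, chr11:31357307-31370074). It was at 110, 112 and 125 CPM in EMPTY, 38.3, 39.3 and 39.5 in RUNX1-ETO_ONLY and 107, 101 and 99.8 in CSF3R_ONLY. It was at 115, 102 and 106 CPM in RUNX1-ETO_FIRST and 162, 167 and 185 in CSF3R_FIRST. The fusion alone thus took it 2.96-fold lower (log2 -1.57, SE 0.08, adjusted p = 2.29e-10, edgeR), the double group started with the fusion overlapped EMPTY, and CSF3R_FIRST was above all. Between the orders the change was -0.67 (SE 0.08, adjusted p = 1.73e-05). Vldlr, a lipoprotein receptor, was at 51.4, 48.7 and 32.5 CPM in EMPTY, 24.2, 23.3 and 20.6 in RUNX1-ETO_ONLY and between 47.5 and 57.1 in the other 9 libraries. Its change with the fusion alone was -0.96 (SE 0.13, adjusted p = 2.54e-05).

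The sum of the single changes lay below the double change for most members. This additivity test compares a double group with the log2 changes of both single groups added to EMPTY. With the fusion first, 26 of 42 members departed upward, 14 of the ER set and 12 of the ATF4 set, and 0 downward, where 6.34% of all genes departed upward and 9.39% downward. With the receptor first, 28 departed upward, 18 and 10, and 0 downward, beside 10.3% and 12.4% of all genes. The 2 counts of 0 were also 0 at an unadjusted p under 0.05 and 0 by DESeq2. For Hspa5 the single changes added to -0.65, while the double changes were 0.07 and 0.51, departures of 0.72 and 1.16 (SE 0.10 each). The departures in Stc2 were 1.64 and 2.31 (SE 0.11) and in Atf5 1.68 and 1.71 (SE 0.11, adjusted p = 7.7e-08 and 6.41e-08, edgeR). Canx, Chac1, Ern1, Nupr1, Psph, Slc7a1, Slc7a11, Slc7a5 and Xbp1 were called in neither test with all libraries. Without EMPTY 3, Canx (0.30 and 0.40) and Slc7a11 (0.92 and 0.81) were called in both and Slc7a5 (0.27) with the receptor first. Slc7a11 was also called with the fusion first without RUNX1-ETO_FIRST 1 (0.96), and Slc7a5 with the receptor first without CSF3R_FIRST 2 (0.33). With the 4 libraries low in long transcripts dropped, the fusion first test had 20 ER and 17 ATF4 genes upward and 1 ATF4 gene downward, and the receptor first test 20 and 12 upward and 0 downward. Of all 12891 genes then tested, 1554 departed upward and 1892 downward with the fusion first, and 2183 and 2199 with the receptor first. The enzymes differed between the tests: 5 of 6 departed upward with the fusion first, by 0.39 to 0.55, and Asns was the only one of the 6 called with the receptor first. The calls on Phgdh and Psat1 with the fusion first were lost under 10 and 8 of 24 alternatives, leaving out any of 8 and any of 7 libraries among them (adjusted p up to 0.105 and 0.113), and those on Asns without RUNX1-ETO_ONLY 2 (adjusted p = 0.0501 and 0.0559) or CSF3R_ONLY 2 (0.0523 and 0.0570). Both tests share all single-allele and EMPTY libraries. Scaled by library size alone, the share of upward departures among all calls went from 45.4% to 26.9% with the receptor first, with a shift of -0.16 in the median of all genes, and 15 ER and 9 ATF4 members departed upward and 0 downward.

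**Figure D5:**
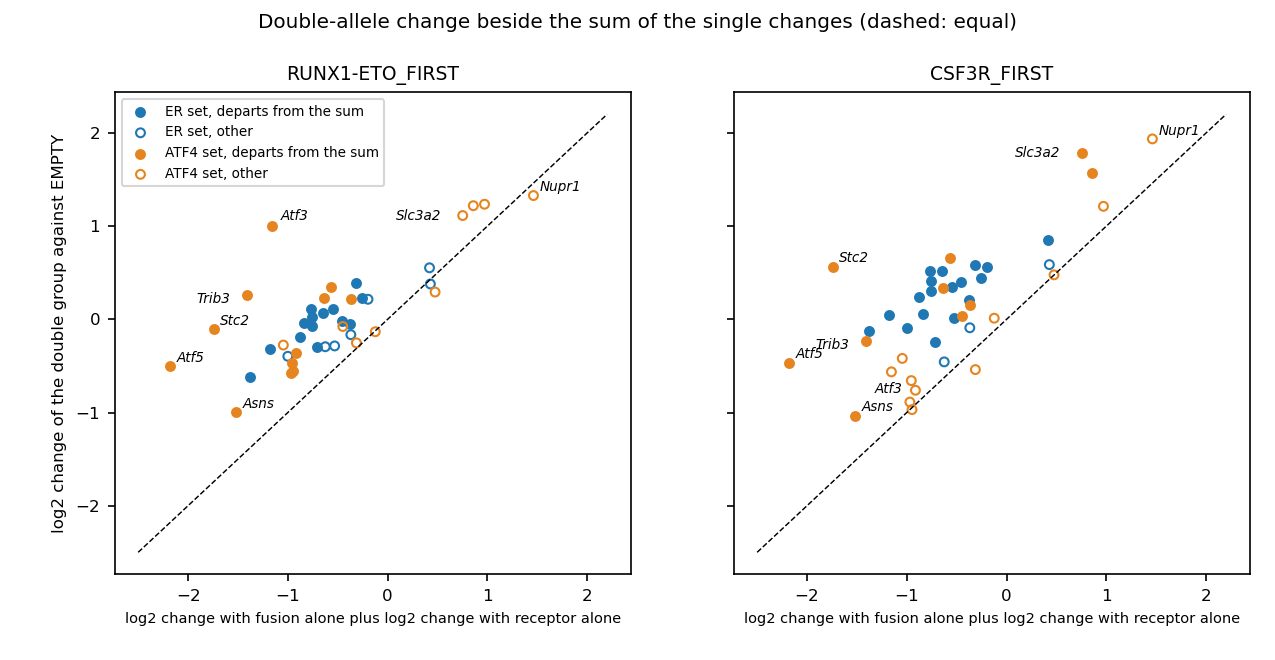
Log2 change of each member in a double group against EMPTY (vertical) beside the sum of its changes with the single alleles (horizontal), filled where the additivity test was called and with a dashed line where both are equal. Most points lie above the line, farthest for Atf3 (2.15) with the fusion first and for Stc2 (2.31) with the receptor first.

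Members with and without the elements shown above are set side by side here. With the fusion alone 8 of 8 ER genes with an ERSE were lower (median -0.52) and 7 of 10 without (median -0.43), beside 18.1% of all genes. In CSF3R_FIRST against EMPTY 6 of 8 with and 6 of 10 without were higher (medians 0.38 and 0.25), beside 26.7% of all genes. Between CSF3R_ONLY and CSF3R_FIRST the counts were 6 of 8 and 4 of 10 higher (medians 0.60 and 0.20), beside 22.2% of all genes. In the ATF4 set with the fusion alone, 4 of 7 genes with a CARE and 8 of 13 without were lower (18.1% of all genes). Their medians were -0.95 and -0.32. From RUNX1-ETO_ONLY to RUNX1-ETO_FIRST 5 of 7 and 6 of 13 were higher (medians 1.19 and 0.24), beside 15.9% of all genes. In CSF3R_FIRST against EMPTY 3 of 7 and 4 of 13 were higher (medians -0.23 and 0.01), beside 26.7% of all genes. From CSF3R_ONLY to CSF3R_FIRST 0 of 7 and 5 of 13 were higher (medians -0.01 and 0.13), beside 22.2% of all genes. The differences between members with and without an element were not tested, because the members were chosen with results known.

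Genes of the same pathways outside the members were read from further lists. Of 45 other ER folding and quality control genes, 25 were lower and 5 higher with the fusion alone (18.1% and 20.8% of all genes), and 24 were higher and 0 lower from RUNX1-ETO_ONLY to RUNX1-ETO_FIRST (15.9% and 10.3%). In CSF3R_FIRST against EMPTY 21 were higher and 4 lower (26.7% and 26.5%), and between the orders 14 were lower and 0 higher (11.1% and 7.18%). Both counts of 0 were also 0 at an unadjusted p under 0.05 and 0 by DESeq2. Ero1a, the oxidase that drives disulfide formation, was at 798 CPM ± 101 (SD, n = 3) in EMPTY, 545 ± 43 in RUNX1-ETO_ONLY, 2546 ± 31.2 in CSF3R_FIRST and 1487 ± 79.9 in RUNX1-ETO_FIRST.

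Among 18 aminoacyl-tRNA synthetases, which charge tRNAs with amino acids, 14 were lower and 1 higher in CSF3R_FIRST against EMPTY (26.5% and 26.7% of all genes). Gars, for glycine, changed by -0.69 and Dars, for aspartate, by -0.70, while Sars, for serine, rose by 0.29 (adjusted p = 0.00155, edgeR). With the fusion alone 9 synthetases were lower and 0 higher (18.1% and 20.8% of all genes). With the receptor alone 9 were lower and 0 higher (13% and 19.9%). In RUNX1-ETO_FIRST against EMPTY 11 were lower and 2 higher (20.1% and 23.7%). Between the orders 0 were lower and 6 higher (11.1% and 7.18%). Of 19 tested ATF4-linked amino acid genes outside the members, 11 were lower and 1 higher with the fusion alone (18.1% and 20.8% of all genes), and 8 were higher and 3 lower from RUNX1-ETO_ONLY to RUNX1-ETO_FIRST (15.9% and 10.3%). Slc6a9, a glycine transporter, rose by 1.87 in CSF3R_FIRST against EMPTY and was 0.47 lower on the log2 scale in RUNX1-ETO_FIRST than in CSF3R_FIRST. Shmt1, the cytosolic counterpart of Shmt2, fell by 1.23 in CSF3R_FIRST. Of 7 genes for eIF2, its kinases and its phosphatase, 1 was lower with the fusion alone (18.1% of all genes), Ppp1r15b by 0.34, and 1 was higher in CSF3R_FIRST against EMPTY (26.7%), Ppp1ca by 0.32. With the receptor alone 2 were higher (19.9%), and from CSF3R_ONLY to CSF3R_FIRST 2 were lower (22.5%). Eif2ak3, the PERK gene, was called only from RUNX1-ETO_ONLY to RUNX1-ETO_FIRST among the 9 tests, at 0.34 (adjusted p = 0.031). Of 12 tested cytosolic heat shock genes, which answer to unfolded protein outside the ER, 1 was lower with the fusion alone (18.1% of all genes) and 1 higher between the orders (7.18%). In CSF3R_FIRST against EMPTY 5 were lower and 1 higher (26.5% and 26.7%), with the receptor alone 2 and 2 (13% and 19.9%), and from CSF3R_ONLY to CSF3R_FIRST 3 and 1 (22.5% and 22.2%). Hspa8, the abundant constitutive member, changed by 0.09 (SE 0.07) with the fusion alone and 0.05 (SE 0.07) between the orders and was not called. Of 11 targets of the transcription factor NRF2, 2 were lower and 7 higher with the receptor alone (13% and 19.9% of all genes). With the fusion alone 5 were lower and 2 higher (18.1% and 20.8%). Between the orders 4 were lower and 0 higher (11.1% and 7.18%), with 1 higher at an unadjusted p under 0.05.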

How the data were processed

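Messenger RNA of 15 libraries, 5 groups of 3, was measured as one table of raw counts per gene deposited by the authors. Per the submitters' processing notes, the tools were STAR, Trimmomatic and DESeq2 on mm10. No versions or roles are listed. The sources used here do not state the counting tool, its annotation or its strand setting. Of 52328 entries, 1 named no gene (0.0179 to 0.0305% of counts) and was left out. Sample columns left unused numbered 0.

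Genes with at least 10 counts in at least 3 libraries were fitted over all 5 groups with edgeR 4.0.16 (TMM, robust quasi-likelihood, 10 residual degrees of freedom) in R 4.3.3. P-values were adjusted by Benjamini-Hochberg over 13199 genes, with a threshold of 0.05, and levels used a prior count of 2 where logged. The fit was tested on simulated data. Additivity was tested as a contrast of 4 groups. Alternatives were DESeq2 1.42.0, other scalings and filters, only the groups compared, the replicate number as a block, 4 libraries left out, each library left out, and each library's lowess trend of deviation on transcript length removed as an offset in edgeR, an alternative added after the data were seen.

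The members and lists were chosen with earlier results of these data known. Per-library values are given for members called between the orders and for up to 4 others per role with the largest called changes. From the further lists up to 3 called genes and up to 2 uncalled ones are named. Sars, Ppp1r15b and Ppp1ca were named after their values were seen. Same-numbered libraries of different groups had a median correlation of deviations of 0.00198 over 30 pairs, with 9 over 0.1 and a highest of 0.451. Pairs with different numbers had a median of 0.00718 over 60 pairs, with 11 over 0.1 and a highest of 0.367. EMPTY 3, RUNX1-ETO_ONLY 3 and CSF3R_FIRST 3, all low in long transcripts, share a number. These values cannot decide whether the numbers pair libraries, and the main fit did not pair them.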

Additional observations from a re-analysis of the deposited data

Results flagged for a closer look

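A departure from additivity (the double change minus the sum of the single changes, log2 scale) passed the test with a size of at least 1 in 16 cases. With the fusion first it was 2.15 for Atf3, which had few counts, 1.68 for both Trib3 and Atf5, and 1.64 for Stc2. With the receptor first it was 2.31 for Stc2, 1.71 for Atf5, 1.28 for Creld2, 1.25 for Sdf2l1, 1.23 for both Manf and Ddit3, and 1.18 for Trib3. It was 1.17 for Hsp90b1, 1.16 for Hspa5, 1.12 for Pdia6, 1.06 for Pdia4 and 1.03 for Slc3a2. All 16 were upward, and the tests share EMPTY and single-allele libraries. Marker levels of mast cells and neutrophils also differ between these groups, and their part in the departures was not tested.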

How the results depend on the processing

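Of 224 member calls over the 9 tests, 171 were kept under all 24 alternatives (10 of 19 between the orders). Of 154 uncalled values, 90 were called with unchanged sign under some alternative. The count of ER genes called between the orders, 10 as reported, was 6 when scaled by library size alone, 19 without the 4 libraries low in long transcripts, 16 with the length trend removed, and 7 to 16 with 1 library left out. Of all genes, 1459 were lower and 948 higher as reported, and 1132 and 1841 by library size alone. They were 2626 and 1765 without the 4 libraries and 2092 and 1687 with the length trend removed. Counts over all genes are not given here for the settings with 1 library left out. With the receptor alone the ER count was 8, and became 5 when only the groups compared were fitted and 13 without the 4 libraries. Of all genes, 1721 were lower and 2625 higher as reported, and then 1301 and 1870, and 2799 and 3302. In RUNX1-ETO_FIRST against EMPTY the ER count was 6, and became 3, 12 and 12 with only the groups compared, without the 4 libraries and with the length trend removed, and 5 to 9 with 1 library left out. Of all genes, 2651 were lower and 3126 higher as reported. In the first 3 of those settings they were 1749 and 2390, 3497 and 3495, and 3242 and 3602. Chac1 with the fusion alone changed sign, to 0.31, without the 4 libraries, and was called there, outside the 90 above. The causes were not tested. Scaling by library size alone also changed the share of higher genes among all calls from 60.4 to 49.1% with the receptor alone, 50.2 to 37.9% in CSF3R_FIRST and 60.7 to 38.3% from RUNX1-ETO_ONLY to RUNX1-ETO_FIRST. The median of all genes then shifted by -0.06, -0.14 and -0.12. With the replicate block, 12 ER genes were called between the orders, beside 1528 lower and 1016 higher of all genes. In that setting 0 of 224 calls were lost and 8 were gained. Calls lost of 224 were 0 by DESeq2 and 16 without a filter. Depth limits Atf3, which had 5 to 35 counts per library.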
